A study of Pinus pinaster with 24 samples.

Results

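In maritime pine (Pinus pinaster) seedlings starved of sulfur, 42 of 67271 transcript features stood lower in stem, needles and cotyledons 24 h after sulfate and showed a smaller difference in roots. They were chosen on the deposited levels, as log2(normalized CPM + 0.5), from the mean of 3 sulfate minus the mean of 3 control libraries in each organ, called the effect here. The effect had to be -1 or lower in each of the 3 shoot organs, every control value there had to lie above every sulfate value, and the root effect had to be above -0.8. Another 204 features met the shoot conditions with a root effect of -0.8 or lower, so the 42 are part of 246 features that were lower with sulfate throughout the shoot. They had been proposed as features that fall in the shoot only, but that name does not describe their values. Of the 42, 41 had a root effect below 0. In 39, every root control value lay above every root sulfate value, against 9.09% of all features. The rule fixed the same separation in the shoot, where 8.26% of all features showed it in stem, 7.11% in needles and 6.19% in cotyledons. The rule also bounded the root effect, so these shares bear on the name as a description, and nothing further is read from them.

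The seedlings came from the Segura-Alcaraz provenance and were 4 months old. From 1 month after germination all of them received 0.3 mM KNO3, a feed without sulfur, each week for 3 months, so the controls were starved as well. The sulfate group was then watered with 0.5 mM K2SO4 and the control group with 1 mM KCl. Roots, stem, needles and cotyledons were taken 24 h later, with 3 libraries for each organ and treatment. Tissue of 13 to 14 seedlings was pooled for a library, which the labels call a biological replicate. The organ labels could not be checked against marker genes, because nothing used here links an identifier to a gene name, and the features below therefore carry no known function.

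Plants take up sulfur mainly as sulfate through the roots and carry it in the xylem to the shoot, where it is reduced in plastids and built into cysteine, methionine and glutathione. In Arabidopsis, sulfur-starved plants raise transcripts for sulfate transporters, for enzymes of sulfate activation and reduction and for the breakdown of sulfur-rich glucosinolates, and lower them again when sulfate returns. Roots and shoots sense sulfur status partly apart from each other, and cotyledons, the seed leaves of a conifer seedling, are older than the needles sampled with them. Whether any of the 42 features belongs to these pathways cannot be said from the files used here.

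The libraries held 92664463 to 195881948 reads, recovered from the deposited steps, so a level of 3 reads was 0.0165 to 0.0351 normalized CPM. The 42 features made up 0.0125 to 0.0892% of a library's reads. Their summed level was 220.2 ± 8.72 normalized CPM in sulfate roots and 354 ± 24.0 in control roots (SD, n = 3). Stem had 138 ± 3.19 with sulfate and 453 ± 72.6 in controls. Needles had 146 ± 8.67 with sulfate and 832 ± 159 in controls, and cotyledons had 264 ± 52.0 with sulfate and 819 ± 50.5 in controls. The ratio of control to sulfate was 5.69 for needles, 3.29 for stem, 3.10 for cotyledons and 1.61 for roots. The feature PpCO2_77919 alone averaged 190 normalized CPM in control needles. Without it the ratio was 4.96 for needles, 3.15 for stem, 2.97 for cotyledons and 1.60 for roots. RNA was taken from whole organs, so fewer cells of a type and less RNA per cell cannot be told apart. The sums describe the choice of features and carry no test.

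**Figure D1:**
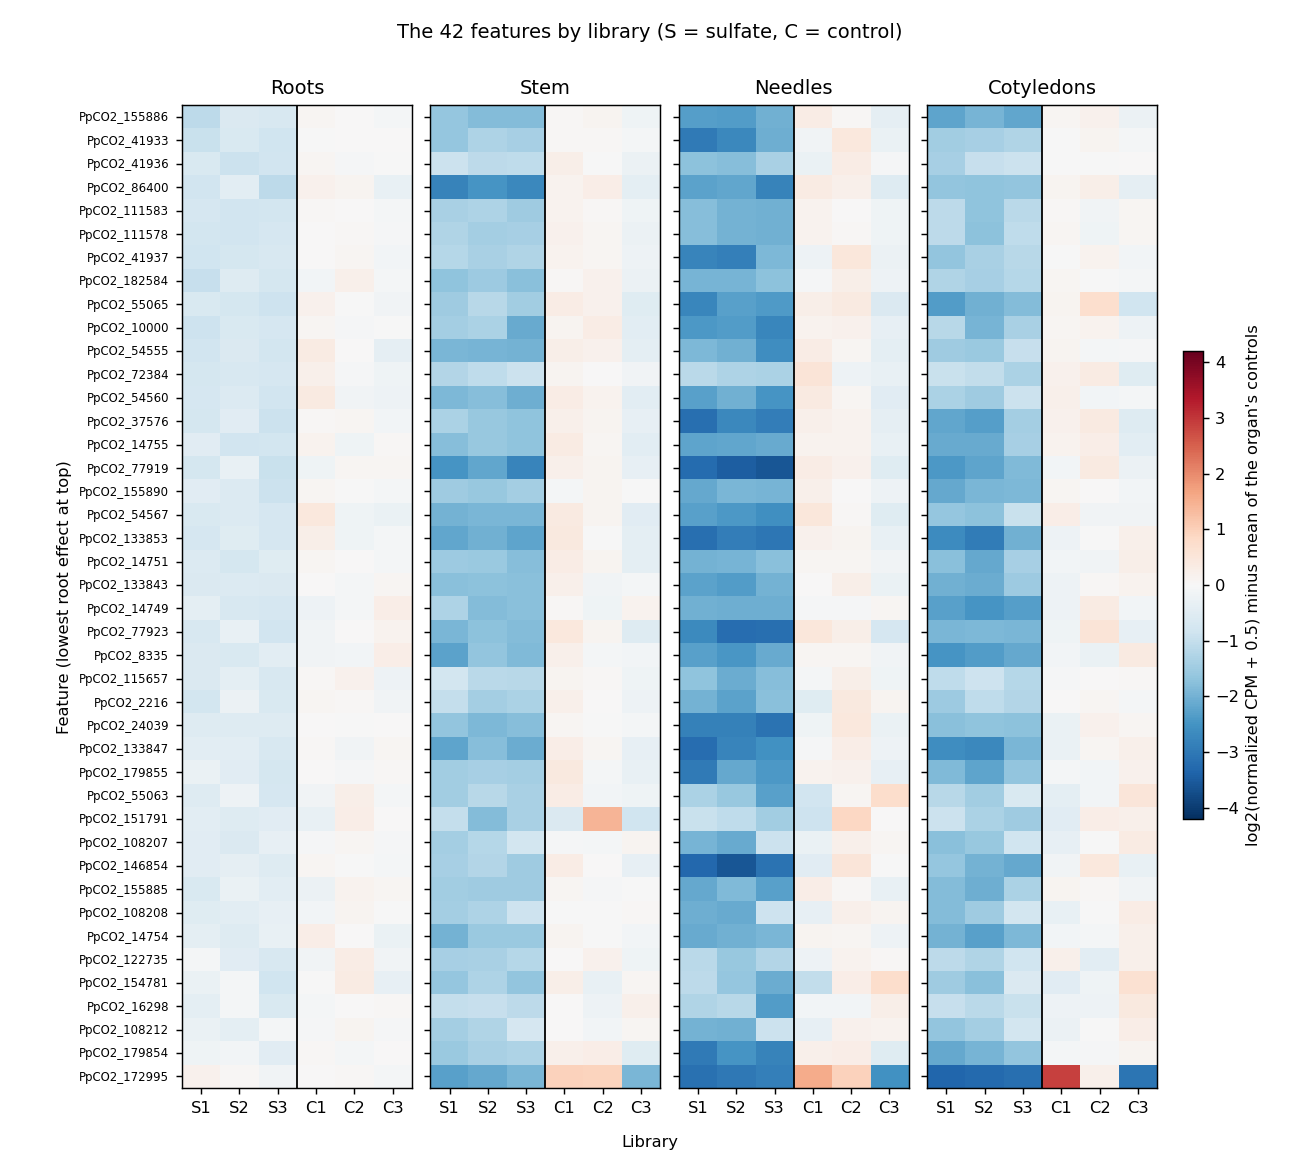
Each of the 42 features (rows) in each of the 24 libraries (columns, S for sulfate and C for control), as log2(normalized CPM + 0.5) minus the mean of the 3 controls of the same organ. Shoot sulfate libraries are blue, palely so in some cells such as PpCO2_154781 in cotyledon sulfate 3, and root sulfate libraries are mostly paler. PpCO2_172995 in the lowest row has control 3 as blue as the sulfate libraries in stem, needles and cotyledons.

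Needles held the deepest effect for 36 of the 42 features, cotyledons for 4 and stem for 2. The median effect was -2.17 in needles, -1.58 in cotyledons, -1.51 in stem and -0.60 in roots, while the medians over all features lay between -0.01 and 0.01. Among stem, needles and cotyledons the shallowest effect fell to stem in 26 features and to cotyledons in 15. The root effect lay above every shoot effect in 42 of 42 features, which the rule fixes. Across the 42 features the effects of needles and cotyledons ran together (Pearson's r = 0.67, Spearman's rho = 0.73), as did those of stem and needles (r = 0.60, rho = 0.64), while the root effect showed r of -0.25 and rho of -0.005 with cotyledons, r of 0.12 and rho of 0.17 with stem, and r of 0.03 and rho of 0.16 with needles. These correlations are over features, of which many are neighbours, and the rule bounded every effect. The organs behind a replicate number may also come from 1 pool of seedlings, which the labels do not state.

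**Figure D2:**
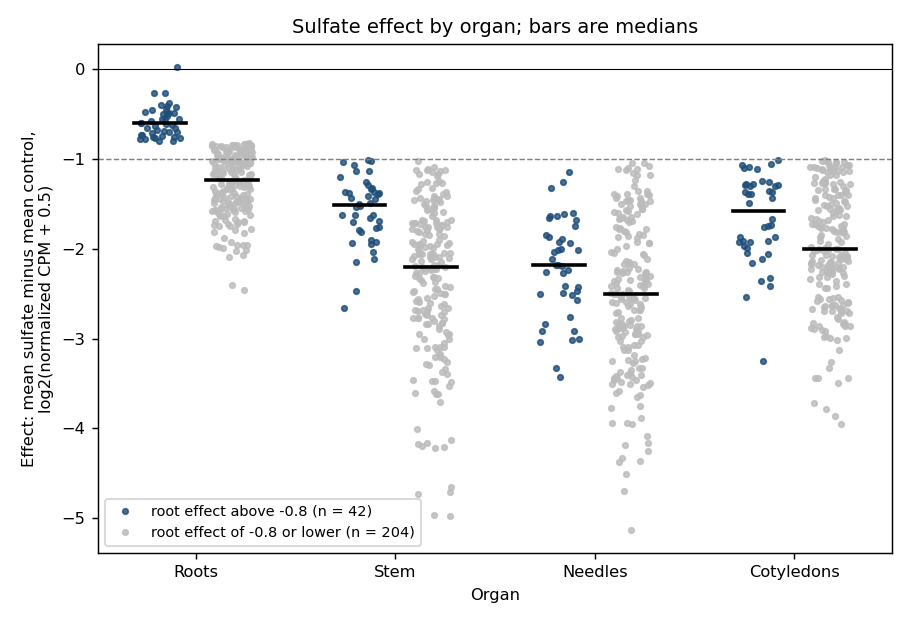
The effect (mean sulfate minus mean control, log2 of normalized CPM + 0.5) in each organ for the 42 features (blue, left of each pair) and for the 204 features that differ from them by the root condition (grey), with medians as bars. The dashed line marks -1, and the blue points reach below it in each shoot organ and stay above -0.8 in roots.

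The member with the highest control level averaged over the shoot organs, PpCO2_77919, was also among the deepest. In needles it had 19.2, 16.5 and 14.8 normalized CPM with sulfate, against 232, 209 and 131 in controls, an effect of -3.43. In cotyledons it had 18.2, 20.6 and 27.0 with sulfate and 89.4, 127 and 82.7 in controls, and in stem 6.70, 8.21 and 5.31 with sulfate and 45.6, 42.4 and 31.0 in controls. In these organs the lowest control stood well above the highest sulfate library, and control 3 was the lowest control in each of them. In roots the same feature was scarce in both groups, at 3.21, 4.50 and 2.72 with sulfate and 5.05, 6.05 and 6.11 in controls, with no overlap. PpCO2_77923, a few identifiers away, repeated this profile at a lower level. Its needles had 4.13, 2.72 and 2.86 with sulfate and 40.6, 34.6 and 17.9 in controls, and its roots 0.339, 0.563 and 0.264 with sulfate and 0.695, 0.827 and 0.973 in controls. The 3 features numbered between them, PpCO2_77920 to PpCO2_77922, had needle effects of -0.00, -0.11 and 0.34, so the pattern did not extend over the identifiers between these members.

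PpCO2_86400 had the deepest stem effect of the 42, at -2.66. Its stem levels were 2.95, 3.85 and 3.24 normalized CPM with sulfate and 26.3, 28.5 and 17.7 in controls. Its needle effect of -2.41 was smaller than its stem effect, the reverse of most members. PpCO2_133853 and its neighbour PpCO2_133847 had needle effects of -3.03 and -2.84. PpCO2_133853 had 0.222, 0.353 and 0.282 in sulfate needles and 6.73, 6.53 and 4.71 in control needles, against 2.11, 2.55 and 2.16 in sulfate roots and 4.64, 3.27 and 3.57 in control roots. The treatments did not overlap in either organ, and the ratio of means, control over sulfate, was 20.98 in needles and 1.68 in roots. By group means PpCO2_133853 was most abundant in roots with sulfate and least abundant there in controls.

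PpCO2_14749 was nearly absent from needles with sulfate. It had 0.0234, 0.0220 and 0.0209 normalized CPM in sulfate needles, which lies below the level of 3 reads, and 1.57, 1.58 and 1.78 in control needles. In cotyledons it had 0.114, 0.0326 and 0.0966 with sulfate and 2.05, 3.25 and 2.25 in controls. In roots the values were 0.677, 0.483 and 0.456 with sulfate and 0.843, 0.984 and 1.41 in controls, so the root levels with sulfate were above the leaf levels with sulfate. The 4 deposited features from PpCO2_14749 to PpCO2_14755 are all members, with needle effects of -2.04, -1.89, -2.01 and -2.17.

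Next by shoot control level was a pair with nearly equal levels, which stood above PpCO2_77919 in roots and stem and in every sulfate group by mean. PpCO2_111578 had 20.3, 17.96 and 17.4 normalized CPM in sulfate needles and 79.5, 74.1 and 63.5 in control needles, and PpCO2_111583 had 20.01, 17.5 and 17.1 in sulfate needles and 77.6, 71.7 and 62.0 in control needles. In roots PpCO2_111578 had 31.7, 30.8 and 32.7 with sulfate and 54.4, 55.8 and 52.2 in controls, a narrow spread around an effect of -0.76. Values this close in every library may mean that reads were shared between close copies, so the 2 features may not be separate. PpCO2_37576 had 15.3, 18.5 and 13.5 in sulfate roots and 26.5, 27.0 and 23.5 in control roots, and 6.02, 8.54 and 7.31 in sulfate needles and 67.4, 64.2 and 44.8 in control needles. It combines a root difference that did not overlap with a needle effect of -2.92.

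The root effect of the 42 features ran from -0.80 to 0.03, and the threshold cut through a continuous spread. Of the 246 features lower in the shoot, 55 had a root effect above -1 and up to -0.8, 21 lay above -0.8 and up to -0.6, 16 above -0.6 and up to -0.4, 4 above -0.4 and up to -0.2, and 1 above that. Just inside the threshold, PpCO2_155886 and PpCO2_41933 had root effects of -0.80 each and PpCO2_41936 of -0.78. Just outside, PpCO2_5523 had -0.82 and PpCO2_111577 and PpCO2_76055 had -0.83 each. PpCO2_41933 had 2.32, 2.95 and 2.53 normalized CPM in sulfate roots and 4.78, 4.96 and 4.88 in control roots, which is a difference far wider than the spread within either treatment. At the shoot threshold, PpCO2_16298, PpCO2_115657 and PpCO2_41936 lay just inside, with their weakest shoot effects at -1.004, -1.01 and -1.03, and PpCO2_157977, PpCO2_170967 and PpCO2_111579 just outside, at -0.98, -0.96 and -0.95.

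**Figure D3:**
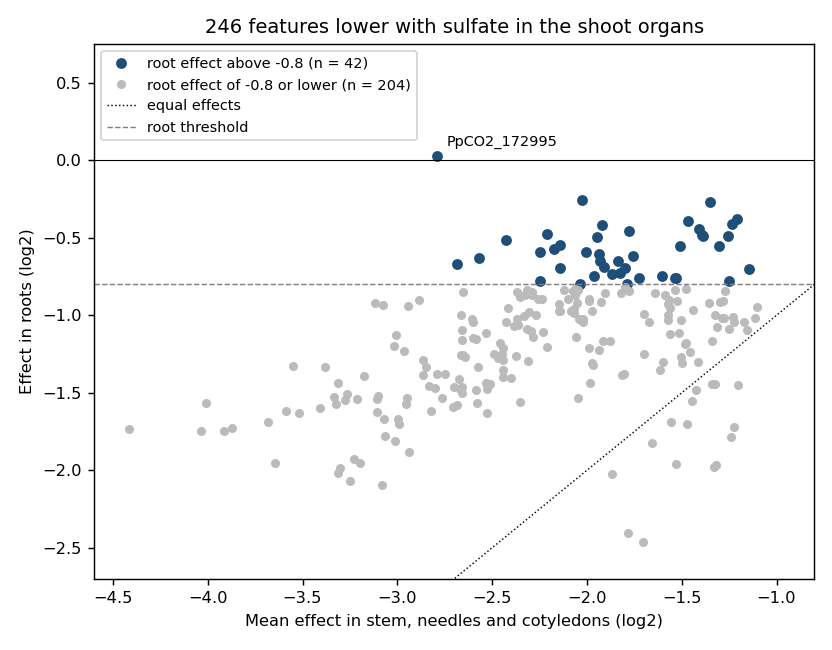
Root effect (y) against the mean effect over stem, needles and cotyledons (x), both in log2 units, for the 246 features that were lower with sulfate in the shoot organs. No gap separates the 42 features above the dashed threshold of -0.8 from the 204 below it, and PpCO2_172995 is the only point above 0.

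Against the other 204 features the 42 also had smaller median effects in the shoot. In stem the median was -1.51 for the 42 and -2.20 for the 204. In cotyledons it was -1.58 for the 42 and -2.005 for the 204, and in needles -2.17 for the 42 and -2.50 for the 204. As a share of the mean shoot effect the root effect had a median of 34.1% in the 42 and 53.0% in the 204, and ranged from -0.922 to 62.3% and from 29.6 to 149%. Needles were deepest in 36 of the 42 and in 123 of the 204, and stem was deepest in 2 of the 42 and in 69 of the 204. The 42 were also less abundant in shoot controls, where the pseudocount of 0.5 shrinks effects more. Their median control level was 3.96 normalized CPM in stem, 5.96 in needles and 6.36 in cotyledons, against 9.01, 11.3 and 10.9 in the 204. By summed levels the ratio of control to sulfate was 5.69 in needles for the 42 and 5.44 for the 204. It was 3.29 and 5.29 in stem, and 3.10 and 3.84 in cotyledons. These are descriptions of 2 lists that the root effect itself divided.

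Low root levels take part in the choice, because a pseudocount of 0.5 shrinks the effect of a scarce feature. The median control level in roots was 2.87 normalized CPM in the 42 and 7.38 in the 204, and 19 of the 42 had a root control mean of at most 2, against 13 of the 204. By the ratio of means, control over sulfate, 11 of the 42 differed by at least 2-fold in roots, and all 11 were among those 19. PpCO2_146854 is the extreme. It had 0.0267, 0.0626 and 0 normalized CPM in sulfate roots and 0.287, 0.226 and 0.195 in control roots, a mean of 3.33 and 27.3 reads, so that a ratio of 7.92 gave an effect of only -0.47. In needles it had 0.444, 0.276 and 0.573 with sulfate and 6.10, 12.8 and 8.61 in controls. Of the 23 members with a root control mean above 2, none reached a 2-fold ratio in roots, and their ratios ran from 0.977 to 1.87 with a median of 1.65. The bound on the root effect leaves little room for a 2-fold ratio except at low root levels. The rule thus largely fixed both this result and the place of the 11 among the 19, and nothing is read from them. With a pseudocount of 0.1 the median root effect of the 42 was -0.77 and 7 reached -1, and with one of 2 the median was -0.31 and none did.

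Each organ's sulfate contrast was also fitted over all features (limma on log2(value + 0.5), Benjamini-Hochberg adjusted p under 0.05). For roots 11 of the 30 members that passed the filter on low values were called lower, against 1.38% of all features tested. Needles had 33 of 42 called lower against 0.478%, stem 33 of 37 against 0.525% and cotyledons 22 of 42 against 0.286%. None was called higher in any organ by this fit, against 0.0164% of features in cotyledons, 0.0357% in needles, 0.132% in stem and 0.487% in roots. The rule used these contrasts, so the counts describe the members and support nothing. Of the 42, 19 were called in each of stem, needles and cotyledons, 11 in 2 of these organs, 9 in 1 and 3 in none, and 4 were called in all 4 organs: PpCO2_41933, PpCO2_41937, PpCO2_111583 and PpCO2_182584. The cotyledon count was 1 without control 1, 3 without sulfate 1, 6 without control 3, 10 without sulfate 2 and 11 without control 2. The root count was 4 without sulfate 1 and 6 without sulfate 2, sulfate 3 or control 2. The stem count was 18 without sulfate 2 and 21 without sulfate 3, control 1 or control 2.

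The 3 members called in no organ were PpCO2_108212, PpCO2_151791 and PpCO2_172995. PpCO2_108212 had 7.99, 7.91 and 17.7 normalized CPM in sulfate needles and 26.5, 38.2 and 36.8 in control needles, and sulfate 3 was also its highest sulfate library in roots, stem and cotyledons. In PpCO2_151791 a single library, control 2, carried much of the stem difference, with 1.34, 0.552 and 0.929 in sulfate stem and 1.92, 9.48 and 1.55 in control stem. Its roots had 8.93, 8.42 and 8.72 with sulfate and 9.80, 15.3 and 12.6 in controls, above its shoot levels in either treatment by group mean.

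PpCO2_172995 is the only member with a root effect above 0, and its shoot differences rest on controls 1 and 2. In stem it had 1.28, 1.45 and 1.77 normalized CPM with sulfate and 16.4, 16.1 and 1.79 in controls. In needles it had 1.65, 1.88 and 2.12 with sulfate and 55.8, 36.7 and 2.78 in controls. In cotyledons it had 1.22, 1.28 and 1.44 with sulfate and 125, 19.3 and 1.56 in controls. Control 3 thus stood next to the sulfate libraries in each shoot organ, and the lowest control exceeded the highest sulfate value by a factor of 1.01 in stem. In roots the values were 6.51, 5.86 and 5.14 with sulfate and 5.81, 5.89 and 5.41 in controls, which overlap. Without this feature the members' highest root effect was -0.26, in PpCO2_179854. That feature had 0.517, 0.572 and 0.328 in sulfate roots and 0.704, 0.601 and 0.668 in control roots, close to each other but with no overlap.

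**Figure D4:**
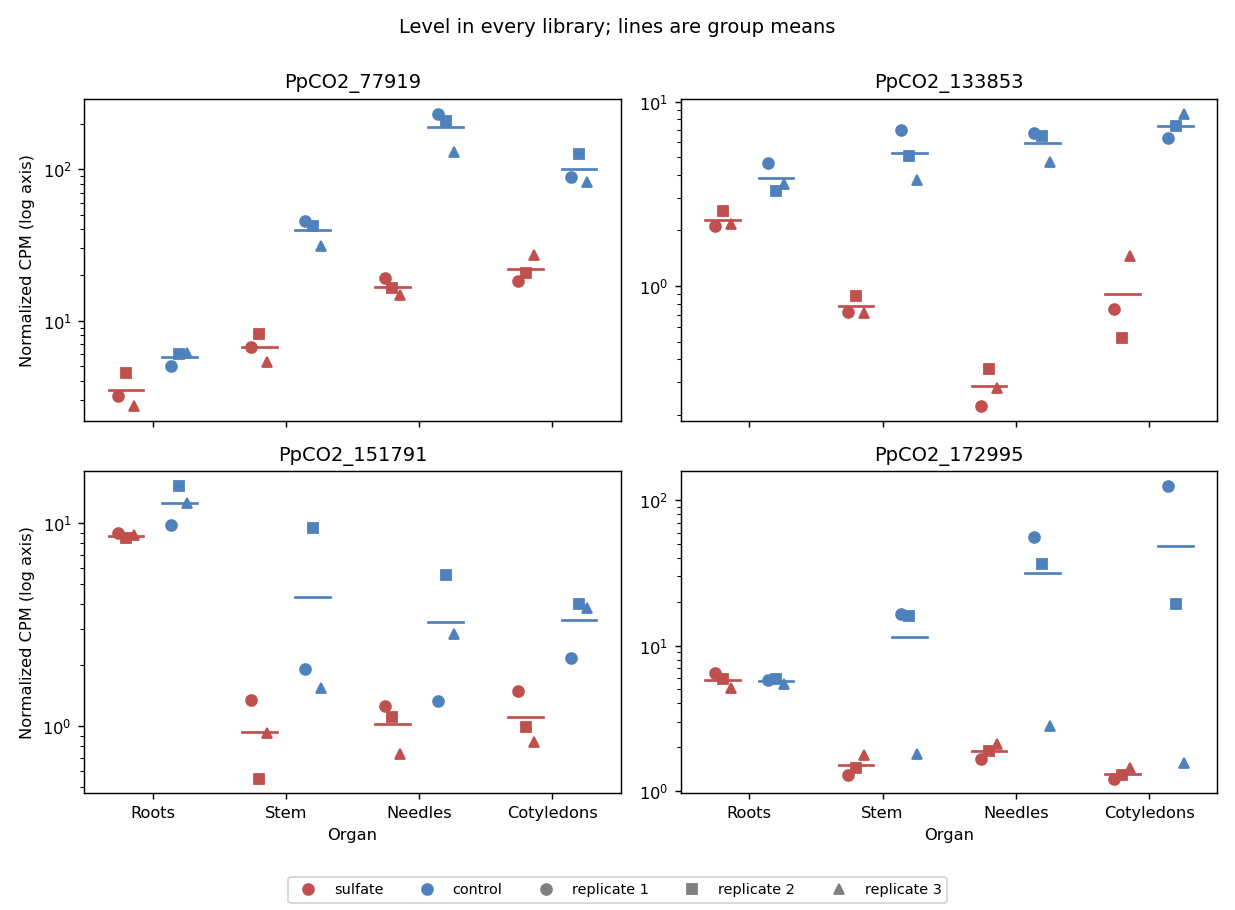
Level in every library (normalized CPM, log axis) of PpCO2_77919, PpCO2_133853, PpCO2_151791 and PpCO2_172995 by organ, sulfate (red) left of control (blue), with the replicate number as the marker and the group mean as a line. In PpCO2_172995 the triangle of control 3 lies at the sulfate level in stem, needles and cotyledons, and in PpCO2_151791 the square of control 2 lies far above the other stem controls.

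Within the control group, replicate 3 was often the lowest library for the 42 features: in 33 of 42 for stem, 30 for needles, 22 for roots and 17 for cotyledons. Replicate 3 was the highest of the sulfate libraries in cotyledons for 30 of 42. The coefficient of variation among the 3 libraries of a group had a median of 23.4 to 34.3% in needles, 18.8 to 30.1% in cotyledons, 19.4 to 19.6% in stem and 12.5 to 14.6% in roots, so root values had the lowest spread of the 4 organs.

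The level of each feature in the organs, averaged over both treatments, was tested across all 67271 features (limma, 24 libraries, Benjamini-Hochberg). This average takes in the sulfate libraries, so the organ with the deeper sulfate effect is set lower than by controls alone. The organ contrasts here and below are therefore not separate from the effects that the rule used. The rule also required a shoot level high enough to be lowered by 1, and through the pseudocount it let in features with low root levels. It thus partly fixed the difference between roots and shoot, whose values are given as a description from which nothing is read. Between roots and the mean of the 3 shoot organs, 23 of the 42 features were called, against 80.3% of all features. Roots were called lower in 16 of the 42 features and higher in 7, against 39.2% and 41.0% of all features. At least 2-fold, roots were lower in 8 and higher in 3, 11 in all, against 14.6%, 15.6% and 30.3%. With plain CPM in place of the authors' scaling, the split was 14 lower and 18 higher. It was 15 lower and 14 higher with edgeR on recovered reads, and 16 lower and 12 higher with a pseudocount of 0.1, so the balance of directions depends on the scaling, the method and the pseudocount. The lowest in roots were PpCO2_77919, at -2.84 ± 0.13 in log2 units (SE), and PpCO2_77923, at -2.66 ± 0.16. The highest were PpCO2_151791, by 2.23 ± 0.26, and PpCO2_10000, by 1.57 ± 0.13. PpCO2_10000 had 7.58, 8.96 and 8.46 normalized CPM in sulfate roots and 15.01, 13.6 and 13.9 in control roots, against 0.807, 0.871 and 0.532 in sulfate needles and 7.22, 7.39 and 4.88 in control needles. The feature was thus root-rich in both treatments, with its deepest effect in needles.

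Between stem and the mean of needles and cotyledons, 28 of the 42 were called, against 76.7% of all features. Stem stood lower in 26 of the 42 features and higher in 2, against 36.0% and 40.6% of all features (limma, Benjamini-Hochberg adjusted p under 0.05). Under plain CPM 18 were lower and 5 higher. Sulfate libraries alone called fewer members in this contrast, with the count given under the dependence on processing. At least 2-fold, 10 were lower and 0 higher, against 15.8% and 16.8%, and against 32.6% in either direction. PpCO2_16298 had the largest difference, -2.21 ± 0.14 in log2 units (SE; limma, adjusted p = 9.81e-12). It had 2.01, 2.08 and 1.86 normalized CPM in sulfate stem and 4.59, 3.81 and 5.31 in control stem, against 21.8, 19.4 and 22.3 in sulfate cotyledons and 37.3, 37.3 and 56.8 in control cotyledons. PpCO2_55065 was next, at -2.16 ± 0.19 (limma, adjusted p = 1.38e-09). The exceptions were PpCO2_72384, higher in stem by 0.65 ± 0.12 (limma, adjusted p = 9.16e-05), and PpCO2_182584, higher by 0.32 ± 0.09 (limma, adjusted p = 0.00280).

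Between needles and cotyledons 20 of the 42 were called, against 60.1% of all features. Needles stood lower in 19 of the 42 features and higher in 1, against 29.9% and 30.2% of all features (limma, Benjamini-Hochberg adjusted p under 0.05). With median-ratio scaling 15 were lower and 3 higher. Sulfate libraries alone gave 17 lower and 1 higher, and control libraries alone 7 lower and 7 higher. The lean towards lower needles was thus absent from control libraries alone. The sulfate effect, which the rule used, was deeper in needles than in cotyledons for 37 of the 42. At least 2-fold, 4 were lower and 0 higher, against 5.33% and 9.08%, and against 14.4% in either direction. PpCO2_154781 had the largest difference, -2.21 ± 0.28 in log2 units (SE; limma, adjusted p = 1.20e-06). It had 2.13, 1.32 and 0.845 normalized CPM in sulfate needles and 2.24, 6.46 and 9.07 in control needles, against 7.91, 6.47 and 14.9 in sulfate cotyledons and 16.3, 20.3 and 36.2 in control cotyledons. PpCO2_55063 differed by -2.01 ± 0.23 (limma, adjusted p = 2.54e-07). In both features control 1 was the lowest needle control and lay near the sulfate values. The exception was PpCO2_146854, higher in needles by 0.55 ± 0.16 (limma, adjusted p = 0.00631). Its direction turned in sulfate libraries alone, where the difference was -0.16, against 1.25 in control libraries alone.

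**Figure D5:**
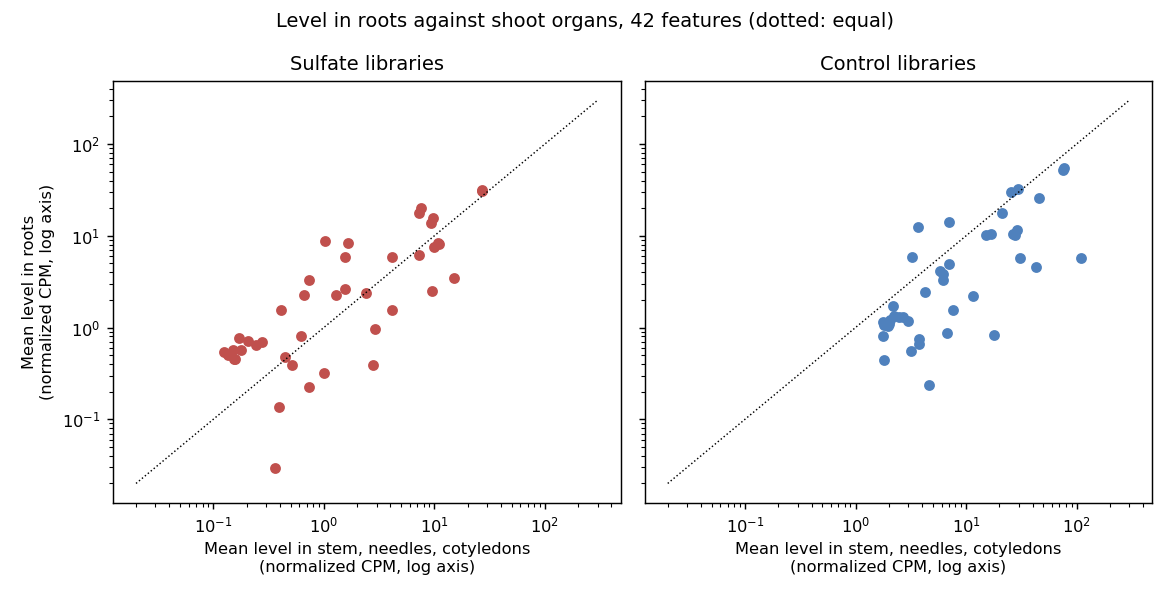
Mean level in roots (y) against the mean level over stem, needles and cotyledons (x) for the 42 features, both in normalized CPM on log axes, in sulfate libraries (left) and control libraries (right). In controls most points lie below the dotted line of equal level, and with sulfate they lie on both sides of it.

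The order of the organs differed between the treatments. By group means, roots held the highest level of the 4 organs in 22 of the 42 features with sulfate and in 5 in controls, and in controls roots held the lowest level in 34. Among the other 204 features, roots were highest in 117 with sulfate and in 27 in controls. In the organ contrast, 25 of the 42 were higher and 9 lower in roots when sulfate libraries alone were used, and 3 were higher and 33 lower in controls alone (limma, Benjamini-Hochberg adjusted p under 0.05). The rule asked for larger effects in the shoot than in roots, so this shift is part of the choice.

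Many members sit beside each other in the numbering of the identifiers. A run joins features whose numbers differ by up to 2 and whose levels correlate by more than 0.8 (Pearson's r, 24 libraries). The 42 features fell into 34 runs, of which 12 held a single feature. In 12 runs, with 15 of the 42 members, the run also held some of the 204, 41 in all. The root threshold thus divided runs of correlated neighbours. Of the 21 deposited features from PpCO2_54554 to PpCO2_54574, 18 met the shoot conditions, but 3 are members and 15 are not, with root effects from -1.42 to -0.65 over all 21. Of the 18 from PpCO2_133840 to PpCO2_133862, all met the shoot conditions, and 3 are members and 15 are not, with root effects from -1.27 to -0.52. Of the 6 from PpCO2_41931 to PpCO2_41937, 3 are members and 3 are not, with root effects from -0.998 to -0.76. Whether such neighbours are copies of a gene that share reads is not known from the files, so members of a run may not be separate features.

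Some other stretches of neighbouring members held none of the 204. The features from PpCO2_108207 to PpCO2_108212 had root effects from -0.48 to -0.27, and 3 of these 4 are members. PpCO2_155885, PpCO2_155886 and PpCO2_155890 had needle effects of -2.11, -2.23 and -2.02 and root effects of -0.46, -0.80 and -0.65. PpCO2_155886 had 0.0468, 0.0331 and 0.167 normalized CPM in sulfate needles and 2.84, 2.34 and 1.61 in control needles, and 0.347, 0.707 and 0.640 in sulfate roots and 1.42, 1.35 and 1.23 in control roots. It was lower with sulfate in both organs with no overlap.

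Signal of other organs was compared between treatments by features at least 32 times higher in 1 organ than in another by control means, with a mean of at least 2, leaving out the 246. In roots, 2482 needle-rich features summed to 1060 to 1205 normalized CPM with sulfate and 982 to 1099 in controls, which overlap. Of these, 1025 had a lower mean with sulfate and 112 were at 0 in all 6 root libraries. The sum of 230 stem-rich features in roots was 119 to 168 with sulfate and 96.4 to 112 in controls, higher with sulfate and with no overlap, and 79 of the 230 had a lower mean with sulfate and 0 were absent from all 6. In cotyledons, 3500 root-rich features summed to 567 to 783 with sulfate and 459 to 490.2 in controls, again higher with sulfate, with 1011 lower by mean and 368 at 0. The other sums in cotyledons were higher with sulfate without overlap too, at 679 to 968 with sulfate and 523 to 558 in controls for 1954 stem-rich features, and at 128 to 159 with sulfate and 87.9 to 98.4 in controls for 725 needle-rich features. All sums measured in stem and in needles overlapped between the treatments, as did that of 2245 cotyledon-rich features in roots. The control means of the measured organ were part of this choice, which favours low control values there. Sums that stood higher with sulfate may thus be partly set by the choice, and nothing is read from them. The part of these sums in the effects of the 42 features was not tested.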

How the data were processed

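RNA of 24 libraries was sequenced as paired reads of 150 bp after poly(A) enrichment, per the labels' protocols, and bcl2fastq and BWA are named per the submitters' processing notes. No source used here names the counter, the reference transcripts, the scaling or the filter. The deposited values are a signal: CPM in which the authors rescaled each library size, since the columns sum to 821677 to 1140730. All values were whole multiples of the library's step within 0.01 of a step (100%), so reads were recovered. In needle control 2 the step lies near 0.01, where rounding could give steps, but 2.78% of its values above 0 were multiples of 0.01 itself. Even numbers made up 57.9 to 69.9% of values from 1 to 20 reads, so mates may be counted separately, and the floor of 3 reads covers counting error only. Between organs levels rest on the authors' scaling, with factors of 0.877 to 0.984 for needles, 0.926 to 0.958 for cotyledons, 1.07 to 1.10 for stem and 1.20 to 1.22 for roots. Strand was not stated to be kept.

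The members and lists were chosen with earlier results of these data known. Organ contrasts and sulfate contrasts were fitted with limma 3.58.1 in R 4.3.3 (eBayes, trend and robust) from log2(value + 0.5), and p-values were adjusted by Benjamini-Hochberg over all features tested. Sulfate contrasts used the 6 libraries of an organ and features that reached 1 in 3 or more of them, and organ contrasts all 67271 features, each of which reaches 1 in at least 3 libraries. Fold changes on this scale understate those of scarce features. Alternatives included edgeR 4.0.16 on recovered reads. The fits were tested on simulated reads. Chi-square per feature between replicate libraries was 10.95 to 68.1, above sampling noise. Features were named by rule: the largest effects in each organ, the highest levels, the extremes of the root effect, those nearest the thresholds and the largest organ differences. Neighbours of these features, and the members called in every organ or in none, were named after their values were seen. Pathway lists were not used, because no table links identifiers to gene names. Python 3.11.15 and matplotlib 3.10.9 drew the figures.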

Additional observations from a re-analysis of the deposited data

How the results depend on the processing

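The rule gave 42 features, and 15 with a shoot effect of -1.5 or lower, 97 with a root effect above -1 and 5 with one above -0.4. As an alternative added after seeing the data, asking that root controls and sulfate values overlap left 3. A pseudocount of 0.1 gave 30, of which 25 were among the 42, and one of 2 gave 54, of which 16 were. A pseudocount of 0.01, also added after seeing the data, gave 30 with 22 shared. Without single libraries the rule gave 37 to 56, with 36 or more shared. At least 2-fold, 11 members were called between roots and shoot, 10 between stem and leaves and 4 between needles and cotyledons. Control libraries alone gave 36 for roots and sulfate libraries alone gave 16 for stem. Leaving out libraries gave 21 to 25, 26 to 30 and 15 to 23. For sulfate, 1 fit over 24 libraries called 7 members in roots and 38 in cotyledons, and a minimum of 5, which tests fewer members, 11 in stem, 13 in needles and 6 in cotyledons. Leaving out libraries gave 24 to 37 in needles, 18 to 29 in stem, 1 to 19 in cotyledons and 4 to 11 in roots. Of 363 values for the 11 features named in organ contrasts 359 kept their call. PpCO2_146854 reversed to -0.16 in sulfate libraries alone, and the cause was not tested. Deviations of same-numbered libraries correlated by 0.06 to 0.45 between organs of a treatment (34 of 36 pairs over 0.1) and by -0.36 to 0.30 between treatments of an organ (5 of 12). Neither set was over 0.1 in every pair, so the numbers were not taken as pairs, but same-numbered organs of a treatment may share a pool, while the organ contrasts treat the 24 libraries as independent. With the replicate block 23, 30 and 21 members were called in the organ contrasts, and for sulfate 32 in needles, 24 in stem, 21 in cotyledons and 10 in roots, so the block moved none of these counts by over 1.5 times.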

Other observations

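PpCO2_172995 shared its low control 3 with features close to it in number. Features were counted in which 1 control replicate lay within 2-fold of the sulfate mean in stem, needles and cotyledons while the other 2 controls were each at least 4 times higher and at least 1 normalized CPM. There were 3 such features for control 3, PpCO2_172994, PpCO2_172995 and PpCO2_173000, and 0 for control 1 and for control 2. All 3 are close in number and near-equal in shoot levels, so they may share reads and may not be separate features. PpCO2_172994 averaged 1.496 ± 0.33 normalized CPM in sulfate needles and 30.7 ± 26.5 in control needles (SD, n = 3), and PpCO2_173000 averaged 1.47 ± 0.36 and 30.1 ± 25.8. In roots PpCO2_172994 averaged 4.57 ± 0.65 with sulfate and 4.27 ± 0.66 in controls, and PpCO2_173000 4.62 ± 0.57 and 4.09 ± 0.55. The count was set up after PpCO2_172995 had been seen.

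PpCO2_154781 is numbered beside features that moved both ways. Its neighbour PpCO2_154782 averaged 24.4 ± 4.7 normalized CPM in sulfate needles and 150.4 ± 46.5 in control needles (SD, n = 3), with a root effect of -1.07. PpCO2_154787, 5 identifiers on, averaged 63.5 ± 6.4 in sulfate stem and 25.2 ± 7.6 in control stem, and 36.6 ± 3.2 in sulfate roots and 21.8 ± 1.4 in control roots. PpCO2_154784 to PpCO2_154788 all had positive stem effects, of 1.31 to 1.39.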
